A study of Mus musculus with 6 samples.

Results

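The proteasome genes of mouse kidney were followed through acute injury by the platinum compound cisplatin, which forms adducts with DNA and harms tubule cells. Members were taken by symbol, as every gene of the Psma, Psmb, Psmc, Psmd, Psme, Psmf and Psmg series with a number, without the inducible catalytic subunits Psmb8, Psmb9 and Psmb10. This gave 48 of the 19087 genes in the table, and 47 passed the filter on low counts. They comprise 16 genes of the core particle, 17 of the regulatory particle, 3 of regulatory particle chaperones, 4 of core particle assembly chaperones, 5 of activators, 1 regulator (Psmf1) and 2 genes that share only the start of the symbol, Psmc3ip and Psme3ip1, whose products are named as interaction partners and are not subunits.

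RNA sequencing of whole kidney tissue covered 6 samples of genotype WT, 3 labelled Control and 3 labelled as treated with cisplatin injected into the peritoneal cavity. The study set out to find molecules that sensitize mice on a high-fat diet to this injury. Dose, time after injection, age, sex, strain and the diet of these 6 samples are not stated in the labels. Nothing in the labels ties each sample to a separate animal, and the p-values therefore reflect sample-to-sample spread that may be partly technical.

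The proteasome is the protease of the cytosol and nucleus that degrades proteins tagged with ubiquitin. Its barrel-shaped core is built of alpha rings, which gate the entrance, and beta rings, which hold the proteolytic sites. A regulatory particle docks on the core, binds and removes the ubiquitin chain in its lid and base, and unfolds the substrate with a ring of ATPases, while other activators can dock in its place. In tubule cells, as in other cells, its subunits are housekeeping genes that are usually controlled together.

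Library totals lay between 16725614 and 18523618 estimated counts. After cisplatin, 3326 of the 14392 genes tested (23.1%) were called higher and 3201 (22.2%) lower, with an adjusted p under 0.05 as the threshold (edgeR quasi-likelihood test, Benjamini-Hochberg over all genes tested). The injury marker Havcr1 lay between 2.14 and 3.23 CPM (counts scaled to a common library size with TMM factors) in controls, and at 1060, 1449 and 420 CPM in cisplatin replicates 1 to 3. All 6 proximal tubule markers were called lower, with a summed level of 5826 to 6448 FPKM (per length, TMM-scaled) in controls and 1576 to 2911 FPKM in cisplatin. Of 6 markers of other tubule segments and podocytes, 3 were lower and 1 higher, and their summed level went from 2219 to 2626 FPKM in controls to 729 to 1291 FPKM in cisplatin. Of 12 leukocyte markers, 9 were tested, 4 were higher and 2 lower, and none was at 0 in all libraries, with a summed level of 51.0 to 80.4 FPKM in controls and 93.3 to 116 FPKM in cisplatin. The higher sum rests on Cd68, a macrophage lysosome gene, which went from 6.57, 8.48 and 8.65 FPKM to 72.3, 71.1 and 51.7 FPKM. Without Cd68, a choice made after the values were seen, the other 11 markers summed to 42.6 to 71.8 FPKM in controls and 41.3 to 44.9 FPKM in cisplatin, with overlapping groups. Ptprc, expressed by nearly all leukocytes, and the macrophage gene Csf1r were the 2 lower (both -0.78 on the log2 scale, edgeR adjusted p = 0.0308 and 0.000285), while Itgam, S100a8 and S100a9 were higher beside Cd68. These 3 had low levels. S100a8 had 0, 6 and 0 counts in controls and 14, 17 and 20 in cisplatin, and S100a9 had 2, 10 and 4 against 22, 25 and 33. Itgam was at 1.47 to 2.67 CPM in controls and 4.79 to 7.90 CPM in cisplatin. All 4 endothelial markers were lower (summed level 131 to 136 FPKM in controls, 71.8 to 87.4 in cisplatin), and 2 of 4 fibroblast markers were higher (58.1 to 71.9 and 71.9 to 99.6 FPKM). The part of these shifts in cell content in the values below was not tested, and in whole tissue fewer cells of a type and less RNA per cell cannot be told apart.

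Promoter sequence is shown for 4 of the genes that were called higher. These are Psmb5, which encodes a catalytic subunit, Psmd10, which had the largest called rise, and the neighbouring activator genes Psme1 and Psme2. The windows of the other genes called higher, Psmd8, Psmd11 and Psmg4, are not shown. They held no match to the motifs searched, and neither did those of Psme1 and Psme2. Each run is the 250 bases before the RefSeq start site on the gene's own strand in GRCm38.p6, written 5′ to 3′, with capitals for matches to the motifs described in the next paragraph.
Psmb5, chr14:54617996-54618245, minus strand: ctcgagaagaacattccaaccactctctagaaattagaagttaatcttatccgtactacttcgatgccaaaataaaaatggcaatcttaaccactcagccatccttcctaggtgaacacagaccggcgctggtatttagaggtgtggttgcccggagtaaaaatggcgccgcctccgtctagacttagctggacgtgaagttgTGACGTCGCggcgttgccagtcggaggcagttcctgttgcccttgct
Psmd10, chrX:140956712-140956961, minus strand: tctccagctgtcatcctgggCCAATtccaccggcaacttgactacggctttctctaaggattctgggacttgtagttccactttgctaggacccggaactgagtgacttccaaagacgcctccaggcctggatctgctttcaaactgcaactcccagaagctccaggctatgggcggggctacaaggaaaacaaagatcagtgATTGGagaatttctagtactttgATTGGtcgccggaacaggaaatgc
Psme1, chr14:55578244-55578493, plus strand: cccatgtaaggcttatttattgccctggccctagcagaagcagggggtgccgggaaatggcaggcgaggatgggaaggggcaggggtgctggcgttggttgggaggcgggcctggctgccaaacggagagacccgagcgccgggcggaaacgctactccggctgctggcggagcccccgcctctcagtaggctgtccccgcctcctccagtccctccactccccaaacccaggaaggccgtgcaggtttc
Psme2, chr14:55591102-55591351, minus strand: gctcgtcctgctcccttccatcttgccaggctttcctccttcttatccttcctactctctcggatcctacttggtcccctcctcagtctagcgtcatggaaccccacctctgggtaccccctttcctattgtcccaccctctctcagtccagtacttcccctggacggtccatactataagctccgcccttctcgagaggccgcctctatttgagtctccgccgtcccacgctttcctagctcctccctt

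The windows were read for 4 motifs on both strands. The antioxidant response element TGACNNNGC, the element bound by NRF2 and its relative encoded by Nfe2l1, was present once in the Psmb5 window, 47 to 39 bases before the start. It was present in 5 of the 40 members with a window (Psmb5, Psmb6, Psmc6, Psmd9 and Psmd12), or 12.5%, against 11.5% of 27025 genes with a window. The box CCAAT was present in 15 of 40 members (37.5%, against 37.5% of all genes) and 3 times in the Psmd10 window. The interferon-stimulated element, read as GAAA, any 2 bases and GAAA, was present in 3 of 40 members (7.50%, against 3.46%), namely Psmb3, Psmd4 and Psmd9, and in neither the Psme1 nor the Psme2 window. The heat shock element, read as GAA, TTC and GAA with any 2 bases between neighbours, was found in 0 of 40 members, against 0.514% of all genes. A match is only a run of letters, and no overlap between motifs occurred in the 4 windows shown.

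Most proteasome messages stayed close to their control level in kidneys in which 45.4% of all genes tested were called changed. Of 47 members tested, 7 were higher (Psmd10, Psme2, Psmg4, Psmd8, Psmd11, Psme1 and Psmb5), 1 was lower (Psmd3) and 39 were not called, with no member both called and changed by 2-fold, against 12.8% of all genes. The 7 are 14.9% of the members, against 23.1% of all genes tested that were called higher, and the 1 stands against 22.2% called lower. The members' median log2 fold change was 0.03 (0.01 over all genes), and the median of its absolute size was 0.09, against 0.32 over all genes. The 95% interval of the fold change lay within 1.5-fold of no change for 38 of 47 members, against 45.6% of all genes. The median standard error was 0.07 for members and 0.12 for all genes, so the intervals of members are also narrower.

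The count of higher members depended on the scaling between libraries. With scaling to library size in place of TMM factors, the median of all genes moved up by 0.14 on the log2 scale, and 19 of 47 members were then higher and 0 lower (40.4%, against 32.2% of all genes called higher and 15.8% called lower). The same 7 were among the 19, and Psmd10 was then both called and changed by more than 2-fold (log2 fold change 1.08, edgeR adjusted p = 0.000437). Limma on the authors' FPKM also gave 19 higher and 0 lower members, against 31.1% and 15.9% of all genes. Without cisplatin replicate 3, 7 members were higher and 2 lower, Psmd3 and Psmg1, against 24.7% and 24.8% of all genes. Relative to the median of all genes, the members' median was 0.03 under TMM factors and 0.03 under library size. Members less than 0.14 below no change can change sign with library size scaling, while members above no change move further up. Which scaling is right the data do not settle.

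**Figure D1:**
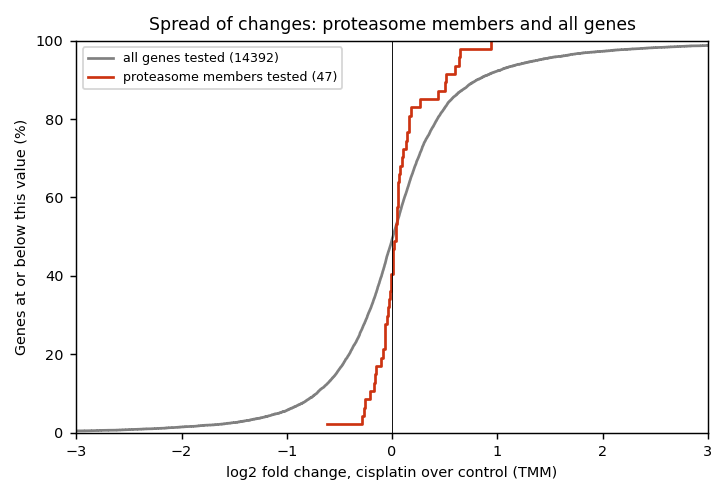
Cumulative share of genes (y axis, percent) at or below each log2 fold change of cisplatin over control (x axis, TMM scaling, cropped at -3 and 3) for the 47 members tested and all 14392 genes tested. The curve of the members rises steeply near 0, with a median absolute change of 0.09 against 0.32 for all genes.

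Among the 16 core particle genes, 15 were tested, 1 was higher and 0 lower (23.1% and 22.2% over all genes), with a median log2 fold change of 0.02. The 7 alpha ring genes tested, whose products form the gate and the docking surface for activators, ran from -0.04 (Psma5) to 0.16 (Psma7) and none was called. Psma1, Psma2 and Psma4 were at 0.01, 0.01 and -0.01, Psma6 was at 0.05 and Psma3 at 0.14. For all 7 the 95% interval excluded a change of 1.5-fold. Psma3 and Psma7 had all 3 cisplatin libraries above all controls, as did 29.2% of all genes, and were called under library size scaling (log2 fold change 0.28 and 0.30, edgeR adjusted p = 0.0287 and 0.0168). Psma8, the testis form of the alpha subunit that Psma7 encodes, did not pass the filter, with 3, 2 and 1 counts in controls and 5, 8 and 3 counts in cisplatin.

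The beta ring holds 3 proteolytic subunits, and of their messages Psmb5 was called higher while Psmb6 and Psmb7 were not called. Psmb5 (Entrez 19173, chr14:54614120-54617995), which encodes the chymotrypsin-like subunit beta 5, was at 123, 128 and 121 CPM in controls and at 161, 146 and 140 CPM in cisplatin. All cisplatin libraries lay above all controls, with the least distance in cisplatin replicate 3. The mean went from 124 ± 4 to 149 ± 11 CPM (SD, n = 3 per group), a rise of 1.20-fold (log2 fold change 0.27, SE 0.08, edgeR adjusted p = 0.0231). The call was lost without control replicate 1 (edgeR adjusted p = 0.0714), control replicate 3 (0.0883) or cisplatin replicate 1 (0.1), with log2 fold changes of 0.21 to 0.26 there, and with the replicate number as a block (0.0571).

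Psmb6 (chr11:70525324-70527858), which encodes the caspase-like subunit beta 1, was at 139, 147 and 140 CPM in controls and at 144, 142 and 147 CPM in cisplatin. The groups overlapped, and the 95% interval of the log2 fold change ran from -0.13 to 0.18. Psmb7 (chr2:38588046-38643952), which encodes the trypsin-like subunit beta 2, was at 114, 116 and 114 CPM in controls and at 106, 93.9 and 106 CPM in cisplatin. All cisplatin libraries lay below all controls, as for 28.4% of all genes, but the change was not called (log2 fold change -0.17, 95% interval -0.34 to 0.0022, edgeR adjusted p = 0.0976; -0.03 with scaling to library size). The two-sided exact permutation test over the 6 libraries gave p = 0.1 for Psmb5, 0.5 for Psmb6 and 0.1 for Psmb7, where 0.1 is the smallest that 3 against 3 samples allow. Within a library, where the scaling cancels, the FPKM of Psmb5 was 1.21, 1.23 and 1.19 times that of Psmb7 in controls and 1.71, 1.74 and 1.48 times in cisplatin, a pair chosen after its values were seen.

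The structural beta subunits were close to their control level: Psmb1 at -0.07, Psmb2 at 0.07, Psmb3 at -0.02 and Psmb4 at 0.08 on the log2 scale. Psmb4 had a narrow spread, with 141, 147 and 142 CPM in controls against 152, 151 and 152 CPM in cisplatin, so that the groups did not overlap although the difference was not called (edgeR adjusted p = 0.356). Psmb11, the catalytic subunit of the thymus proteasome, was near the filter at 0.75 to 1.04 CPM in controls and 1.30 to 1.67 CPM in cisplatin and was not called (log2 fold change 0.65, SE 0.27, edgeR adjusted p = 0.0795).

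The inducible counterparts of these catalytic subunits, which replace them in the immunoproteasome, were higher in cisplatin: Psmb10 by 1.14, Psmb8 by 0.78 and Psmb9 by 0.68 on the log2 scale (edgeR adjusted p = 0.000923, 0.0129 and 0.00919). The Psmb8 call was lost without control replicate 1 or 2 (edgeR adjusted p = 0.0526 and 0.0542). In FPKM within each library, Psmb10 was 0.110, 0.101 and 0.140 of its constitutive counterpart Psmb7 in controls and 0.232, 0.368 and 0.275 of it in cisplatin, without overlap. Psmb9 was 0.0627, 0.0587 and 0.0760 of Psmb6 in controls and 0.0817, 0.120 and 0.109 of it in cisplatin, also without overlap. Psmb8 was 0.0852, 0.0835 and 0.115 of Psmb5 in controls and 0.0973, 0.175 and 0.136 of it in cisplatin, and these groups overlapped. The two-sided exact permutation p was 0.1 for the first pair of ratios and 0.2 for Psmb8 to Psmb5 (0.15, 0.15 and 0.2 after Benjamini-Hochberg adjustment over the 3). The leukocyte markers did not move one way, as given with the libraries, and their part in this result was not tested.

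**Figure D2:**
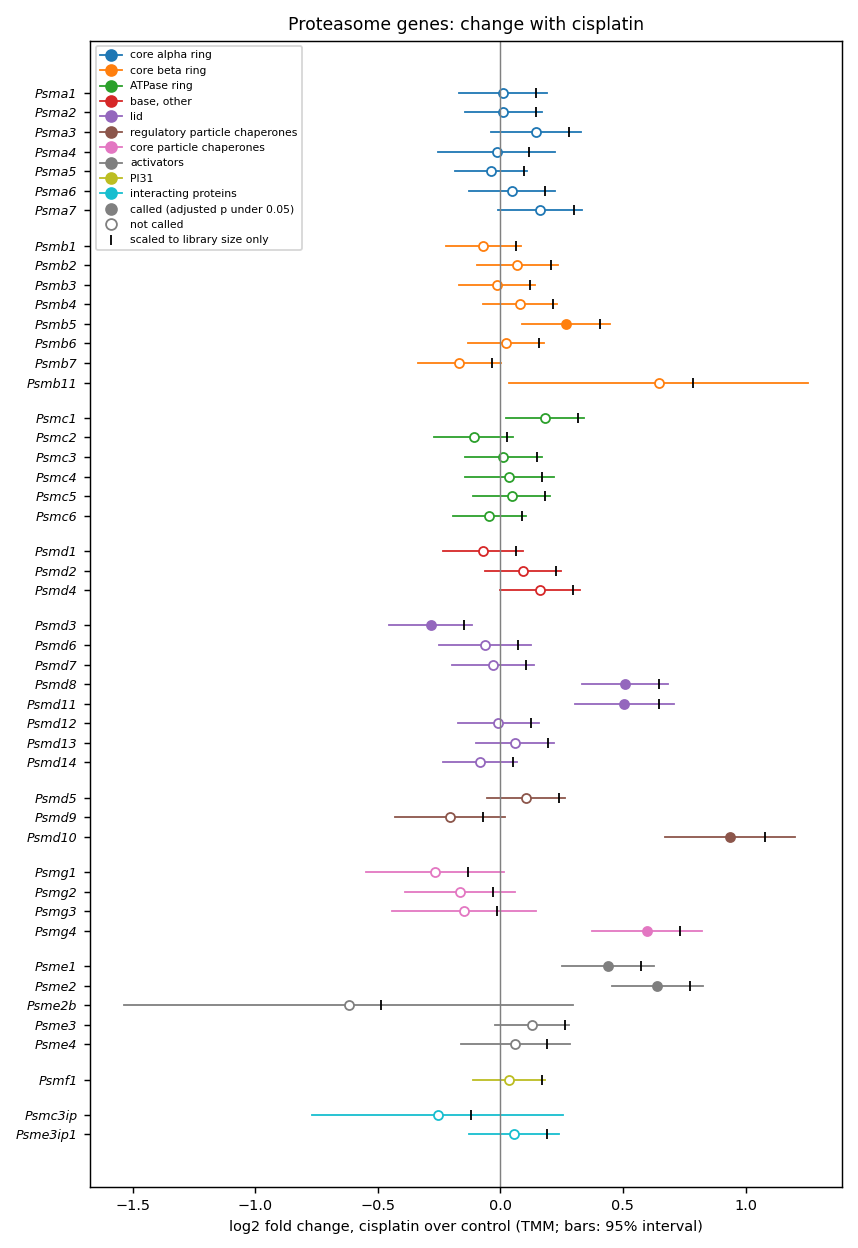
Log2 fold change of cisplatin over control (x axis) for the 47 members tested, with a line for each gene, grouped and coloured by role. Circles are TMM-scaled estimates with 95% intervals, filled where the adjusted p was under 0.05, and black ticks are the estimates with scaling to library size. Filled circles to the right of 0 mark Psmb5, Psmd8, Psmd11, Psmd10, Psmg4, Psme1 and Psme2, and the 1 filled circle to the left is Psmd3.

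Of the 17 regulatory particle genes, 2 were higher and 1 lower (23.1% and 22.2% over all genes), all in the lid, with a median log2 fold change of 0.01. The 6 ATPases of the unfolding ring were not called and ran from -0.11 (Psmc2) to 0.18 (Psmc1). Psmc3, Psmc4, Psmc5 and Psmc6 were at 0.01, 0.04, 0.05 and -0.05. Psmc1 stood nearest to the threshold, at 114, 110 and 105 CPM in controls and 124, 122 and 127 CPM in cisplatin, without overlap (edgeR adjusted p = 0.0604, or 0.00573 with scaling to library size). In the base, the scaffold genes Psmd1 and Psmd2 were at -0.07 and 0.09, and Psmd4, which encodes a ubiquitin receptor, at 0.16. None of the 3 was called with TMM factors, and Psmd2 and Psmd4 were called with scaling to library size (edgeR adjusted p = 0.0339 and 0.00704).

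Within the regulatory particle, the 8 lid genes were spread the widest, with log2 fold changes from -0.28 to 0.51. Psmd8 (Entrez 57296, chr7:29174187-29180673), a lid scaffold subunit, was at 162, 177 and 167 CPM in controls and at 247, 234 and 239 CPM in cisplatin. The groups were far apart relative to their spread, and the rise was 1.42-fold (log2 fold change 0.51, SE 0.08, edgeR adjusted p = 0.00116). Psmd11 (Entrez 69077, chr11:80428615-80473248), a further lid scaffold subunit, was at 85.5, 90.7 and 84.9 CPM in controls and at 121, 138 and 113 CPM in cisplatin. It also rose by 1.42-fold without overlap (log2 fold change 0.51, SE 0.09, edgeR adjusted p = 0.00236). On the authors' FPKM, without TMM factors, it rose by 0.75 on the log2 scale (limma adjusted p = 0.00171). On counts scaled to library size it rose by 0.65. The FPKM of Psmd11 do not follow its counts alone. In control replicates 1 and 2 it was at 85.5 and 90.7 CPM but at 37.2 and 35.9 FPKM (TMM-scaled).

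Psmd3 (Entrez 22123, chr11:98682554-98695978), also a lid scaffold subunit, went the other way. It was at 219, 201 and 212 CPM in controls and at 172, 172 and 175 CPM in cisplatin, all below the controls, and fell to 0.821 of the control level (log2 fold change -0.28, SE 0.07, edgeR adjusted p = 0.0140). That call was lost with scaling to library size (log2 fold change -0.15, edgeR adjusted p = 0.130) and when control replicate 1, control replicate 3 or the first cisplatin replicate was left out (0.0564, 0.0538 and 0.0587). In FPKM within a library, Psmd11 was 0.356, 0.375 and 0.346 of Psmd3 in controls and 0.664, 0.771 and 0.587 of it in cisplatin, a pair chosen after its values were seen. The other lid genes were not called: Psmd14, whose product is the deubiquitinase that removes the ubiquitin chain, was at -0.08, Psmd6 at -0.06, Psmd7 at -0.03, Psmd12 at -0.01 and Psmd13 at 0.06.

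**Figure D3:**
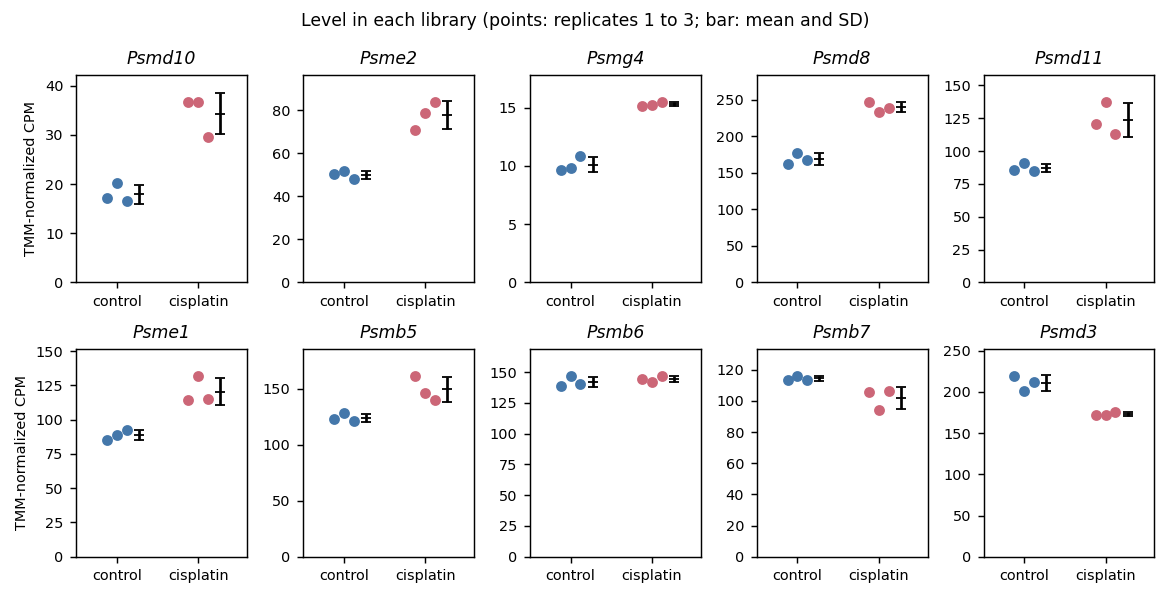
TMM-normalized CPM (y axes from 0) in each control and cisplatin library for the 8 members called, and for the catalytic genes Psmb6 and Psmb7. Points are replicates 1 to 3 from left to right and bars are the mean with SD. The groups do not overlap except for Psmb6, and cisplatin replicate 3 is the lowest of its group for Psmd10, Psmd11 and Psmb5.

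Genes for the factors that assemble the proteasome did not move together. Psmd10 (Entrez 53380, chrX:140948425-140956711) encodes gankyrin, a chaperone of the ATPase ring that is also known as a partner of the p53 ubiquitin ligase MDM2. It was at 17.1, 20.1 and 16.6 CPM in controls and at 36.7, 36.8 and 29.5 CPM in cisplatin. All cisplatin libraries stood well above the controls, and the rise of 1.91-fold was the largest called among the members (log2 fold change 0.94, SE 0.12, edgeR adjusted p = 0.000467). Psmd5 and Psmd9, which encode the other 2 chaperones of the ATPase ring in the list, were at 0.10 and -0.21 and were not called. Psmd9 was at 36.0, 37.0 and 33.5 CPM in controls and 33.1, 26.7 and 32.5 CPM in cisplatin, below the controls in every library. Per length, the message of Psmd10 was 0.863, 0.986 and 0.903 of that of Psmd9 in controls and 2.02, 2.50 and 1.65 times that of Psmd9 in cisplatin, a pair chosen after its values were seen.

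Of the 4 core particle assembly chaperones, whose products guide the building of the alpha ring, 1 was higher and 3 were not called, where 23.1% of all genes were higher. Psmg4 (Entrez 69666, chr13:34162964-34178172) was at 9.64, 9.80 and 10.9 CPM in controls and at 15.1, 15.2 and 15.5 CPM in cisplatin. It rose by 1.51-fold without overlap (log2 fold change 0.60, SE 0.10, edgeR adjusted p = 0.00171). Its partner Psmg3, with which it forms a dimer, was at 9.58, 10.1 and 8.57 CPM in controls and 9.44, 7.85 and 8.18 CPM in cisplatin, with overlapping groups (log2 fold change -0.15, 95% interval -0.44 to 0.14). Psmg1 and Psmg2, which form the other dimer, were at -0.27 and -0.17. Psmg1 was called lower without cisplatin replicate 3 (log2 fold change -0.37, edgeR adjusted p = 0.0296), and with all 6 libraries its adjusted p was 0.109.

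Of the 5 activator genes, 2 were higher and 0 lower, against 23.1% and 22.2% of all genes tested. Psme1 and Psme2 encode the alpha and beta subunits of PA28, an interferon-inducible ring that opens the core without ATP. Psme1 (Entrez 19186, chr14:55578494-55581527) was at 85.2, 89.0 and 92.4 CPM in controls and at 114, 132 and 115 CPM in cisplatin, a rise of 1.35-fold (log2 fold change 0.44, SE 0.08, edgeR adjusted p = 0.00320). Psme2 (Entrez 19188, chr14:55587440-55591101) was at 50.4, 51.6 and 47.9 CPM in controls and at 70.9, 78.7 and 84.0 CPM in cisplatin, a rise of 1.56-fold (log2 fold change 0.64, SE 0.08, edgeR adjusted p = 0.000517). In both genes every cisplatin library lay above every control. The leukocyte markers moved in both directions, and their part in this result was not tested.

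Psme3, which encodes the nuclear PA28 gamma, was at 119, 123 and 118 CPM in controls and at 129, 134 and 131 CPM in cisplatin. Its groups did not overlap, yet the change of 0.13 on the log2 scale was not called (edgeR adjusted p = 0.143, or 0.0134 with scaling to library size). Psme4, which encodes the activator PA200, was at 0.06 with overlapping groups. Psme2b, a retrocopy of Psme2 that may share its reads, had 0.79 to 1.37 CPM in controls and 0.35 to 0.86 CPM in cisplatin and was not called (log2 fold change -0.62, SE 0.40). Psmf1, which encodes the proteasome regulator PI31, was at 40.2 to 40.5 CPM in controls and 40.7 to 42.5 CPM in cisplatin (log2 fold change 0.03, edgeR adjusted p = 0.685). The interaction partners Psmc3ip, a factor of homologous recombination, and Psme3ip1 were at -0.26 and 0.06 and were not called.

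Strandedness of the libraries is not given, so reads of genes that overlap on opposite strands may be mixed. In GENCODE M21 exons of 7 members overlap a protein-coding gene of the table on the opposite strand, by 14 bases for Psme1 and by 114 to 385 bases for Psma4, Psmb7, Psmc3, Psmc3ip, Psmd1 and Psmd13. Exons of Psmd9 overlap the noncoding gene Gm26745 on the opposite strand by up to 1849 bases. Those of Psma5 and Psmd3 overlap noncoding genes on that strand by up to 60 and 17 bases. Overlaps on the same strand can mix reads whatever the strandedness. Exons of Psmg3, Psmd1 and Psme2b overlap the protein-coding genes Gm26938, Gm21972 and 9930111J21Rik1 on the same strand by up to 280, 154 and 41 bases. Those of Psmb5 overlap the microRNA gene Mir686 by up to 109 bases. Among the inducible subunits, Psmb9 overlaps the protein-coding gene Tap1 by up to 212 bases and Psmb8 the noncoding gene Gm20496 by up to 259 bases.

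Levels per length showed how the subunits compare among themselves. Among the 14 core particle genes above 1 FPKM, the control level ran from 42.3 FPKM for Psma5 to 168 FPKM for Psmb3, and among the 17 regulatory particle genes from 29.2 FPKM for Psmd14 to 115 FPKM for Psmd8. The spread between subunits, as the SD of log2 FPKM over the core particle genes, was 0.54 to 0.56 in control libraries and 0.57 to 0.58 in cisplatin libraries. For the 8 lid genes it was 0.68 to 0.70 in controls and 0.74 to 0.76 in cisplatin. Across genes, which are not independent replicates, the order of the control and cisplatin means had a Spearman correlation of 0.952 over the core particle and 0.934 over the regulatory particle.

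Summed over genes, the core particle held 1617, 1656 and 1580 FPKM in controls and 1712, 1609 and 1692 FPKM in cisplatin, with overlapping groups. The regulatory particle held 1105, 1116 and 1095 FPKM in controls and 1179, 1146 and 1192 FPKM in cisplatin, all above the controls by a small margin. Its mean sum went from 1106 to 1172 FPKM. Psmd8 went from a mean of 115 to 164 FPKM, Psmd11 from 36.0 to 55.5 FPKM and Psmd3 from 100 to 82.4 FPKM. The higher sum thus rests on Psmd8 and Psmd11, which were called higher. The sum of the regulatory particle relative to that of the core was 0.684, 0.674 and 0.693 in controls and 0.689, 0.713 and 0.705 in cisplatin, so the groups overlapped. The sum of Psme1 and Psme2 relative to that of the core went from 0.0935, 0.0951 and 0.0991 in controls to 0.121, 0.146 and 0.132 in cisplatin, with no overlap. On the authors' TPM, which fix the total of each library, the same class sums were 1.23-fold (core) and 1.26-fold (regulatory particle) higher in cisplatin, against 1.03-fold and 1.06-fold with TMM scaling.

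**Figure D4:**
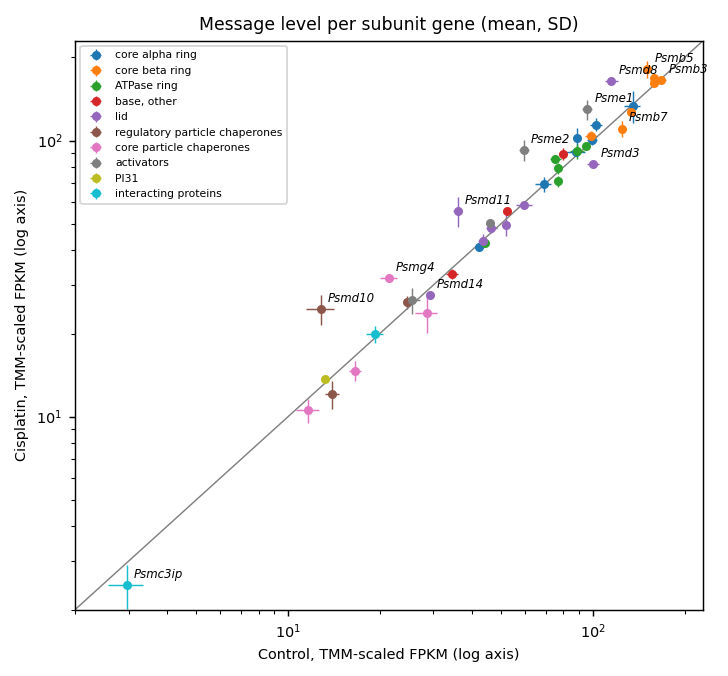
Mean level per length of each member above 1 FPKM in controls (x axis) and in cisplatin (y axis), in TMM-scaled FPKM on log axes, with SD over 3 libraries and colours by role. Most genes lie on the grey line of equal level, with Psmd10, Psmd11, Psmg4, Psme1, Psme2, Psmd8 and Psmb5 above it and Psmd3 below it.

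Of 30 other genes of the ubiquitin and proteasome pathway, 29 were in the table and tested. Of these, 7 were higher (24.1%, against 23.1% of all genes) and 3 lower (against 22.2%), with a median log2 fold change of 0.00. Further subunits and associated factors were not called (0 of 8, against 45.4% of all genes). They include the ubiquitin receptor gene Adrm1 (-0.16), the lid subunit gene Sem1 (0.00) and the core maturation factor gene Pomp (-0.01). Among genes that control subunit transcription, Nfe2l2, which encodes NRF2, was at 97.4, 109 and 104 CPM in controls and at 229, 235 and 194 CPM in cisplatin. That is a rise of 2.12-fold without overlap (log2 fold change 1.09, SE 0.10, edgeR adjusted p = 8.53e-05). Nfe2l1, which encodes the factor that raises proteasome genes when proteasome activity is short, was at 0.00 (95% interval -0.19 to 0.19). Ngly1, whose product removes glycans from that factor, went from 43.8, 41.0 and 41.6 CPM to 32.1, 33.4 and 36.9 CPM (-0.30, edgeR adjusted p = 0.0135). That call was lost with scaling to library size (-0.17, edgeR adjusted p = 0.0882) and without control replicate 1 or cisplatin replicate 1 (0.0518 and 0.0598). Ddi2 (0.51, edgeR adjusted p = 0.111) and Nfe2l3 (-0.34), the remaining genes of this list, were not called. Ddi2 was called higher without control replicate 1 (edgeR adjusted p = 0.0159) and with the replicate block (0.00642).

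Of 10 shuttle factor and p97 genes, 4 were higher and 1 lower, against 23.1% and 22.2% of all genes. Zfand2a, a heat shock factor target whose product binds the proteasome under arsenite stress, rose from 17.5, 15.8 and 16.4 CPM to 34.7, 38.0 and 30.2 CPM, by 1.05 on the log2 scale (SE 0.10, edgeR adjusted p = 0.000143). Rad23b and Ubqln1, which encode shuttles that carry ubiquitinated proteins to the proteasome, rose by 0.31 and 0.25 and Zfand5 by 0.36 on the log2 scale, and the Ubqln1 call was lost in 4 of 14 alternatives. Vcp, which encodes the unfoldase p97, fell from 423, 408 and 432 CPM to 347, 352 and 354 CPM (log2 fold change -0.26, edgeR adjusted p = 0.0294), a call lost with scaling to library size (-0.13, edgeR adjusted p = 0.215) and without either of control replicates 1 and 3 or cisplatin replicates 1 and 2 (0.0832, 0.106, 0.106 and 0.0571). Among the ubiquitin and ubiquitin-activating enzyme genes, Uba6 was higher by 0.52 and Rps27a by 0.30 on the log2 scale. Uba6 had a low level, with 6.29, 5.14 and 7.14 CPM in controls and 9.74, 9.47 and 7.33 CPM in cisplatin (edgeR adjusted p = 0.0375). The Uba6 and Rps27a calls were lost in 5 and 4 of 14 alternatives, and Ubb was at -0.02.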

How the data were processed

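The submitters' processing notes name HISAT, without a version, and the build GRCm38.p6. They state neither strandedness nor the annotation nor how reads were counted. For each library the authors' table holds estimated counts, FPKM and TPM. The authors' estimated counts carry no normalization and were rounded to whole numbers. The authors' FPKM are scaled to length and library size, and were divided here by the TMM factors to compare levels. For some genes, as for Psmd11 and Psma3, FPKM and counts are not in a fixed ratio across libraries. The TPM values deposited by the authors share 1 total per library. The control columns are named by initials with a replicate number. They were taken as the Control samples because every remaining column names cisplatin.

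Genes passing filterByExpr (minimum count 10) were tested with edgeR 4.0.16 (TMM, robust quasi-likelihood F test, group as the only term, two-sided) in R 4.3.3. Adjusted p-values are Benjamini-Hochberg over all 14392 genes tested, a gene was called under 0.05, and a standard error is the log2 fold change divided by the root of F. The procedure was also run on simulated data in which few genes changed, as many up as down. That run does not test the scaling when as many genes change as here. DESeq2 1.42.0 and limma 3.58.1 (log2 of FPKM plus 0.1 or 1) were alternatives, beside other scalings, no filter, each library left out and the replicate number as a block. Replicate pairs differed by 8.66 to 53.2 times the sampling variance, so no library copied another.

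Members, classes and lists were chosen with earlier results of these data known. The rule for full values took Psmb5, Psmb6 and Psmb7, and the called members with the largest rise and fall of each class, and in each related list likewise. Full values of other members were added after they were seen. Of the 113 listed symbols, Paaf1 was not found in the table under that name. Sequences are from RefSeq (GRCm38.p6), matched by gene ID for 40 of 48 members. Of all gene IDs, 19031 matched RefSeq. The values of 1 gene of the related lists are not reported here.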

Additional observations from a re-analysis of the deposited data

How the results depend on the processing

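Psmd8, Psmd10, Psmd11, Psmg4, Psme1 and Psme2 were called higher in all 14 alternatives, and over all members and alternatives no call reversed. Scaling decided most other changes. Library size scaling gave 19 higher and 0 lower members (6 higher in the core particle, 7 higher and 0 lower in the regulatory particle), and medians of 0.16 (core) and 0.15 (regulatory). Limma on log2(FPKM + 0.1) and on log2(FPKM + 1) each gave 19 higher and 0 lower members, with 6 and 5 in the core particle, 7 and 7 higher and 0 lower in the regulatory particle, medians of 0.16 in the core and 0.15 in the regulatory particle. Without the FPKM filter, 16 members were higher (4 core, 6 regulatory) and 0 lower, with the same medians. In these 4 alternatives 0 related genes were lower. On TPM the log2 ratio of the class sums was 0.30 (core), 0.33 (regulatory), 0.65 (activators), 0.54 (regulatory particle chaperones) and 0.30 (core particle chaperones).

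With 1 library left out, 6 to 7 members were higher and 0 to 2 lower; in the core particle 0 to 1 were higher, and in the regulatory particle 2 were higher and 0 to 1 lower. Of the related genes 4 to 7 were higher and 0 to 3 lower. The replicate block gave 6 higher and 1 lower member, 0 higher in the core particle (Psmb5, edgeR adjusted p = 0.0571) and 1 related gene lower. Deviations of same-numbered libraries had correlations of 0.03, -0.13 and -0.13, and those of differently numbered libraries ran from -0.02 to 0.15. With 3 libraries a group, these values cannot decide whether the numbers pair the samples. The causes of these shifts were not tested beyond the scaling itself. With 3 libraries a group, members of low count had wide intervals, as for Psmb11 (log2 fold change 0.04 to 1.26) and Psme2b (-1.53 to 0.30).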
